A study of Mus musculus with 19 samples.

Results

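The collagen genes are the probes whose gene name is Col followed by a number, the letter a and a number, with 1 probe kept per gene, the brightest over all 19 arrays. They came to 43 genes, read from 87 probes, among 27793 gene names on the array. Each sample was hybridised to its own Agilent array of the mouse transcriptome, in 1 colour. The cells were C2C12, a mouse myoblast line, made to carry stably either empty plasmids (C2C12 WT, 6 arrays) or plasmids encoding human wild-type HDAC4 (pIRES neo3) and HDAC5 (pIRES hyg3), class IIa histone deacetylases (C2C12 HDAC4&5, 6 arrays). Both kinds of cell were selected with hygromycin and geneticin at 500 µg/ml and harvested 48 h after seeding. The muscle was soleus of male C57BL6J mice aged 12 weeks and fasted for 5 h, either heterozygous db -/+ littermates (soleus Con, 3 arrays) or db +/+ mice (soleus db, 4 arrays), whose leptin receptor gene is defective in every tissue. Nothing in the labels says that the C2C12 samples of a group came from separately derived lines or cultures, and the study's methods give fewer biological replicates per group than there are C2C12 arrays. Some arrays may therefore share a culture, and the p-values in cells measure only the spread between arrays, which may be technical. Replicate numbers of soleus db are those of the scanner files, and the deposited matrix numbers the same db arrays differently, with no effect on their group.

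Collagens are secreted chains that wind around each other into a helix. Fibrillar collagens (types I, II, III, V, XI, XXIV and XXVII) assemble into the ropes that carry load, type IV builds the sheet of the basement membrane around each muscle fibre, and type VI forms beaded filaments that link that sheet to the surrounding matrix. Fibril-associated collagens sit on the surface of fibrils, and transmembrane collagens stay anchored in the cell. In muscle, most of this matrix is laid down by fibroblasts, with contributions from muscle and vessel cells, and the chains of a given type are encoded by separate genes.

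All levels here are log2 of the processed signal minus the array's 75th percentile (0 is that percentile), and a log2 difference of 1 is a 2-fold change. Levels of different probes are not set against each other. The 75th percentile was 494 to 1691 on C2C12 arrays and 153 to 686 on soleus arrays. The C2C12 arrays lay on 3 slides and the soleus arrays on 2, each slide holding both groups compared, but cells and muscle never shared a slide, so cell type and slide cannot be told apart and the 2 materials were not tested against each other. The mouse Hdac5 probe rose in C2C12 HDAC4&5 (log2 difference 1.42 ± 0.27 SE, limma adjusted p = 0.000387), the mouse Hdac4 probe did not pass the test (-0.05 ± 0.05, limma adjusted p = 0.347), and neither probe was designed to the human sequences introduced. Most muscle markers tested fell in C2C12 HDAC4&5, beside 32.8% of all genes tested. The falls past the adjusted p were 7 of 7 skeletal muscle, 6 of 8 slow muscle fibre and 5 of 6 myoblast markers. Myh7 (1.44) and Tpm3 (0.37) of the slow fibre list rose, and Met of the myoblast list did not pass (-0.13). The sum of 7 slow muscle fibre markers was 51.4 to 74.9 times the 75th percentile in C2C12 WT and 63.2 to 75.6 in C2C12 HDAC4&5. Myod1, the master regulator of myoblasts, was well above background on 6 of 6 C2C12 WT arrays and on 0 of 6 C2C12 HDAC4&5 arrays, Pax7 and Myf5 were on none of either group, and the summed level of 7 skeletal muscle markers was 62.8 to 99.8 times the 75th percentile in C2C12 WT and 0.272 to 0.523 times in C2C12 HDAC4&5. Markers of other lineages shifted too, most of them in both directions. Of 9 fibroblast markers tested 4 rose and 3 fell. The summed level of 11 fibroblast markers was 47.6 to 90.3 in C2C12 WT and 40.5 to 45.0 in C2C12 HDAC4&5, that of 9 tendon markers 43.2 to 91.4 and 31.3 to 39.9, and that of 7 adipocyte markers 5.19 to 5.71 and 0.707 to 0.848. The sum of 7 Schwann markers was 0.53 to 0.794 and 0.804 to 1.22, that of 7 chondrocyte markers 2.69 to 3.25 and 1.27 to 1.69, and that of 8 epithelial markers 10.5 to 12.6 and 0.551 to 0.704. A sum follows its brightest genes, and few markers were bright enough to test. Of those tested, 1 of 4 tendon, 2 of 6 Schwann, 1 of 2 adipocyte, 1 of 3 epithelial and 0 of 3 chondrocyte markers rose. The falls were 2, 2, 1, 2 and 2, and 69.3% of all genes tested passed. Lpl fell (-3.18) while Fabp4 rose (2.14). Mkx of the tendon list was well above background on 0 C2C12 WT and 6 C2C12 HDAC4&5 arrays. The part of these markers in the collagen differences was not tested. The endothelial markers were not well above background in a full group of C2C12 arrays, so 0 of 8 could be tested in cells.

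In C2C12 cells, collagen genes moved strongly in both directions. Of the 43 genes, 27 were bright enough to test, 10 were higher and 9 lower in C2C12 HDAC4&5, and 8 did not pass the adjusted p of 0.05 in limma. That is 70.4% of those tested, beside 69.3% of all 14104 genes tested in these cells (36.5% higher and 32.8% lower), so the share called was near the background. The groups did not overlap for 19 of the 27 genes tested, 10 higher and 9 lower, beside 54.5% of all genes tested (28.2% higher and 26.3% lower). These were the same 19 genes as were called, so this is not a separate result. The median log2 difference was 0.04, beside 0.05 for all genes tested. Among genes well above background on all kept arrays of both groups, differences ran from -2.60 for Col4a1 to 3.34 for Col1a1. Of the basement membrane chains 0 rose and 3 of 5 fell. Among the beaded filament chains 3 of 4 rose and 0 fell, and of the fibrillar chains 3 rose and 3 fell of 9. The shares called in these small families were 60%, 75% and 66.7%, beside 69.3% of all genes tested. The basement membrane falls include Col4a5 and the beaded filament rises Col6a4, which depended on setting or probe as given below.

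**Figure D1:**
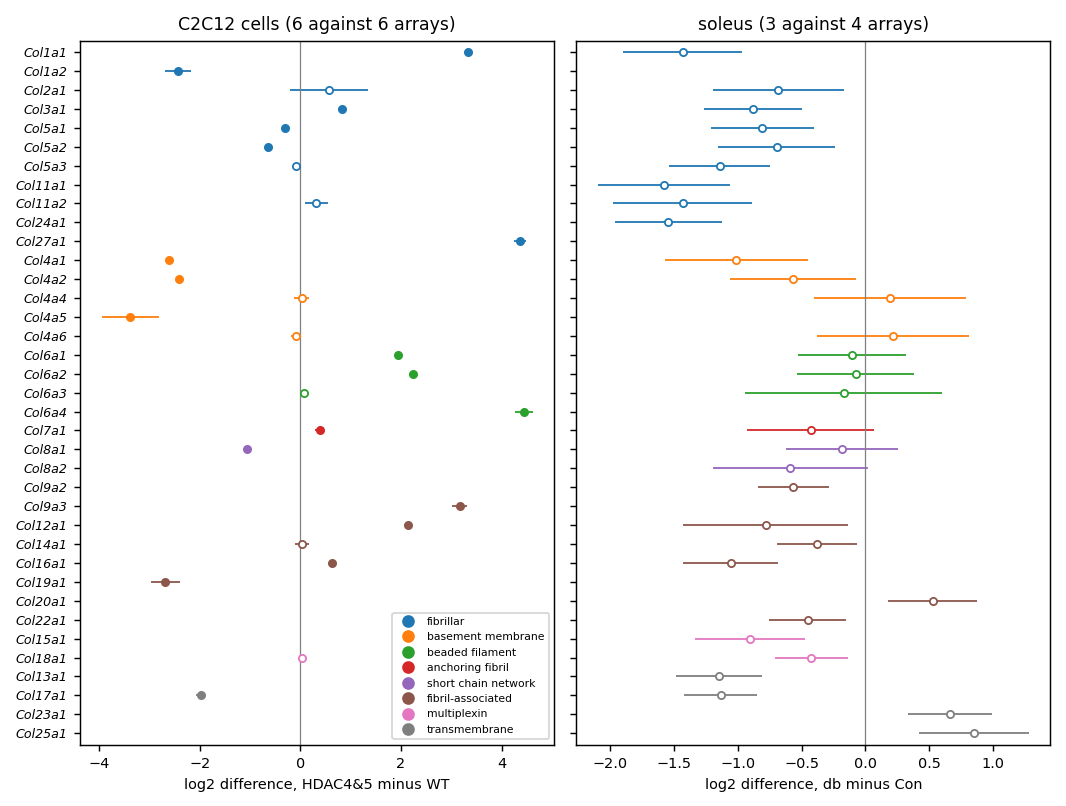
Log2 differences (points) with standard errors (bars) of every collagen gene tested, in C2C12 cells (HDAC4&5 minus WT, left) and soleus (db minus Con, right), coloured by family; filled points passed the adjusted p of 0.05 in limma. The 2 panels have different x axes. In cells 10 filled points lie above 0 and 9 below, and in soleus no point is filled, with 26 of 31 below 0.

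The chains of type I collagen, the main load-bearing fibril of muscle and tendon, moved in opposite directions. Col1a1 (α1 chain; probe at chr11:94813075-94813134, mm9) ran from 0.90 through a median of 1.05 to 1.16 in C2C12 WT and from 4.32 through 4.40 to 4.43 in C2C12 HDAC4&5. The groups stood far apart and each was tight, giving a log2 difference of 3.34 ± 0.05 (SE, limma adjusted p = 1.1e-14). The other Col1a1 probes gave 3.45 and 2.67. Col1a2 (α2 chain; probe at chr6:4490619-4490678, mm9) was 5.24 to 6.64 in C2C12 WT, with 3 of the 6 spots saturated, and 3.71, 3.73 and 3.84 on the 3 C2C12 HDAC4&5 arrays whose spots were kept. Every C2C12 HDAC4&5 value lay below every C2C12 WT value, and the log2 difference was -2.43 ± 0.26 (SE, limma adjusted p = 1.56e-05). The spots left out on the other 3 arrays, marked as outliers by the scanner software, read 3.70 to 3.78. Saturation caps the C2C12 WT values from above, and the second Col1a2 probe, well above background on 5 C2C12 WT and 0 C2C12 HDAC4&5 arrays, gave -1.13.

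Other fibrillar chains shifted less, apart from Col27a1. Col3a1 (type III, which co-assembles with type I) rose by 0.83 ± 0.08 (SE, limma adjusted p = 6.77e-07), from 5.03 to 5.33 in C2C12 WT to 5.85 to 6.23 in C2C12 HDAC4&5. Type V chains seed fibrils, and of these Col5a1 fell by 0.30 and Col5a2 fell by 0.64, while Col5a3 did not pass (-0.09, limma adjusted p = 0.116). Col27a1, a fibrillar chain best known from cartilage, was not well above background on any C2C12 WT array and was well above it on all 6 C2C12 HDAC4&5 arrays, from -3.08 through -2.85 to -2.63. On the processed signal it was at least 7.20-fold higher (limma adjusted p = 3.12e-12), and its second probe, well above background on 1 C2C12 WT and 4 C2C12 HDAC4&5 arrays, gave a difference of 1.79.

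The cartilage fibril chains depended on the slide. Col2a1 in C2C12 WT was -1.07 and -1.53 on slide 1, -4.15 and -3.91 on slide 2 and -0.35 and -0.25 on slide 3, and C2C12 HDAC4&5 followed at -1.03 and -1.40, -2.75 and -2.45, and -0.46 and 0.24. Slides differed by more than groups, and the difference of 0.57 did not pass (limma adjusted p = 0.527). It passed with the slide as a block (adjusted p = 0.0458) but not with the replicate number (adjusted p = 0.0674). A second Col2a1 probe, well above background on 6 and 5 arrays, gave 0.03. Col11a2 likewise had 0.32 (limma adjusted p = 0.24) and passed with the slide as a block (adjusted p = 0.00509) or the replicate number (adjusted p = 0.00415). A second Col11a2 probe, well above background on 6 C2C12 WT and 4 C2C12 HDAC4&5 arrays, gave -0.03.

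Type IV collagen was lower in its main chains. Col4a1 and Col4a2, whose products form the standard network of basement membranes, are neighbours transcribed in opposite directions from starts that lie side by side. Col4a1 (probe at chr8:11199009-11199068, mm9) ran from 2.22 through 2.34 to 2.40 in C2C12 WT and from -0.46 through -0.24 to -0.16 in C2C12 HDAC4&5, a difference of -2.60 ± 0.06 (SE, limma adjusted p = 4.75e-13). Col4a2 (probe at chr8:11448840-11448899, mm9) ran from 1.70 through 1.82 to 1.93 and from -0.71 through -0.59 to -0.46, a difference of -2.41 ± 0.05 (SE, limma adjusted p = 3.76e-13). The pair fell by close amounts on every slide, by 2.57, 2.61 and 2.63 for Col4a1 and by 2.38, 2.48 and 2.37 for Col4a2, and their second probes gave -2.37 and -2.59. Because these neighbours moved together, the 250 bases before each annotated start are shown (RefSeq, GRCm38.p6, 5′ to 3′ on the gene's own strand), with CCAAT and GGGCGG, searched on both strands, in capitals.
Col4a1 (minus strand, chr8:11312827-11313076): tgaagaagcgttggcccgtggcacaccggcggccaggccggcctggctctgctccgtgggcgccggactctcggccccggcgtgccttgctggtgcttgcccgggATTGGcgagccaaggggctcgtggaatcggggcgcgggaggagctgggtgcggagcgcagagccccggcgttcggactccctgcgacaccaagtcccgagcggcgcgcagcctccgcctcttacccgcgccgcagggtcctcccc
Col4a2 (plus strand, chr8:11312555-11312804): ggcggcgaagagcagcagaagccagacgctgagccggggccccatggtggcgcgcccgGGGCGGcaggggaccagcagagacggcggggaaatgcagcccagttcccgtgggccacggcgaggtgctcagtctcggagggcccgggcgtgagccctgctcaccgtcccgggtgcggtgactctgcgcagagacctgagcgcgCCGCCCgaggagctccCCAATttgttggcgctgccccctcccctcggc
The windows do not overlap, but the annotated transcripts share their first 22 bases, on opposite strands, so each window lies within the start of the other gene. The Col4a1 window held CCAAT once, on the other strand, and the Col4a2 window held CCAAT once and GGGCGG on each strand. Neither held TATAAA. Of all 32851 promoter windows of this length, 33.8% held CCAAT, 32.7% GGGCGG and 12.4% TATAAA, and these matches are a description of letters only.

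The remaining type IV chains were less clear. Col4a5 (α5 chain, on the X chromosome beside Col4a6) ran from -3.95 through -3.79 to -3.36 in C2C12 WT, well above background on all 6 arrays, and read -8.10, -7.80, -7.96 and -7.29 on 4 C2C12 HDAC4&5 arrays, where it was not well above background, but -4.37 on the array of replicate 3. The difference was -3.38 ± 0.57 (SE, limma adjusted p = 0.000211, and 2.85e-07 to 0.21 over the other settings), and on slide 2 alone it was -0.47. The spot left out on replicate 4 as an outlier read 1.17, and with such spots kept, a choice made after seeing the data, the difference was -2.0 and the adjusted p 0.21. In the deposited matrix, which is blank for those 4 dim arrays, the difference was 1.69 (limma adjusted p = 0.103). Col4a6 did not pass by its brightest probe (-0.09, limma adjusted p = 0.46), while another Col4a6 probe, well above background on 6 C2C12 WT and 0 C2C12 HDAC4&5 arrays, gave -3.16, so its probes disagree. The mean of its probes gave -0.992 (limma adjusted p = 0.000568). Col4a4 gave 0.02 (limma adjusted p = 0.897) and Col4a3 was not bright enough to test.

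**Figure D2:**
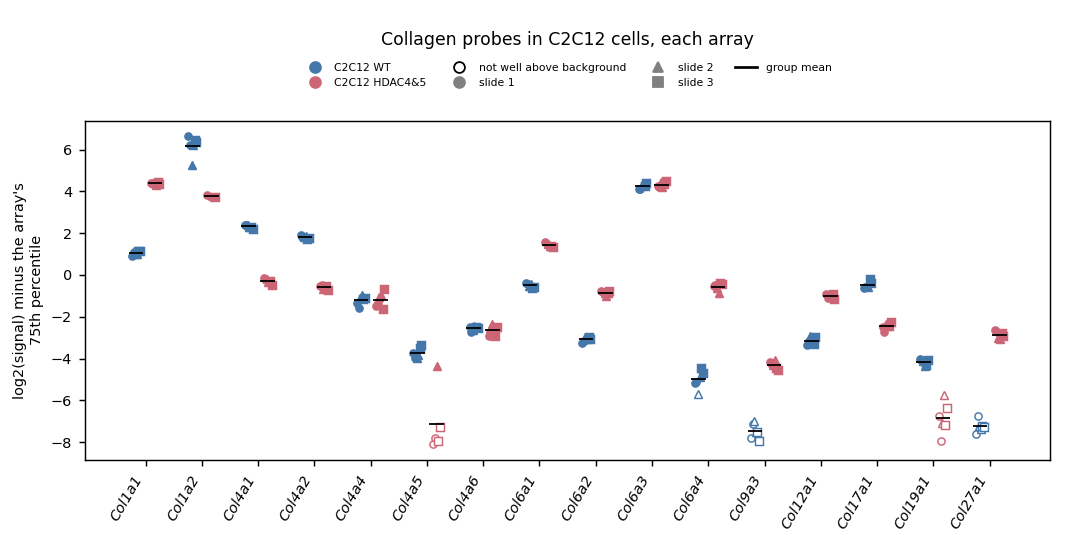
Level of the 12 collagen genes with the largest changes past the adjusted p in C2C12 cells, and of the other tested chains of their types, on each array. The y axis is log2 of the signal minus the array's 75th percentile, with group as colour and slide as marker shape. Open markers are not well above background and bars are group means. Col1a1, Col6a1, Col6a2, Col6a4, Col9a3, Col12a1 and Col27a1 are higher and Col1a2, Col4a1, Col4a2, Col4a5, Col17a1 and Col19a1 lower in HDAC4&5, and the lone Col4a5 array near -4.37 stands apart.

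Type VI collagen rose in α1 and α2 but not in α3. Col6a1 (probe at chr10:76171899-76171958, mm9) went from -0.63 through -0.49 to -0.38 in C2C12 WT to 1.35 through 1.43 to 1.57 in C2C12 HDAC4&5, a difference of 1.94 ± 0.06 (SE, limma adjusted p = 5.01e-12). Col6a2 (probe at chr10:76058931-76058990, mm9) rose by 2.23 ± 0.06 (SE, limma adjusted p = 2.2e-12), from -3.27 through -3.07 to -2.96 to -0.99 through -0.83 to -0.77, and its other probe gave 3.13. Col6a3, which supplies the longest chain of the classical trimer, ran from 4.09 to 4.40 and from 4.19 to 4.51, overlapping groups with a difference of 0.08 (limma adjusted p = 0.362), and its other probes gave 0.21 and 0.15. Col6a1 and Col6a2 are neighbours on the same strand that rose together, and their promoter windows are shown as above. Unlike those of Col4a1 and Col4a2 they lie far apart, with 102164 bases between the Col6a1 and the upstream Col6a2 window. Col6a2 has 2 annotated starts, whose windows share 24 bases.
Col6a1 (minus strand, chr10:76726045-76726294): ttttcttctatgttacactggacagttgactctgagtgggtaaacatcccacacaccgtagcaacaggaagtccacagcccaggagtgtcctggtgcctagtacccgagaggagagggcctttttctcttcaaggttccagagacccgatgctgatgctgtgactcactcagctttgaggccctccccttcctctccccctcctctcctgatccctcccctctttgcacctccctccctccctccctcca
Col6a2, downstream start (minus strand, chr10:76623405-76623654): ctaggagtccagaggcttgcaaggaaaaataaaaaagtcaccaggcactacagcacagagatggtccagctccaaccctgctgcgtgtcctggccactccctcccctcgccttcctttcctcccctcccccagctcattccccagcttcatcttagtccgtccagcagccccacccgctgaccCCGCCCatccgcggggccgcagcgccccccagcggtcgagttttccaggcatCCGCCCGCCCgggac
Col6a2, upstream start (minus strand, chr10:76623631-76623880): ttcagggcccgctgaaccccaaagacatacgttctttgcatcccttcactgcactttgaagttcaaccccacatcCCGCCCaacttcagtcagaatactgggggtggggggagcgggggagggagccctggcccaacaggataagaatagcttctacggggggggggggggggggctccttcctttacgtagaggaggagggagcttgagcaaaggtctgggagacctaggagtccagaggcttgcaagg
The Col6a1 window held none of the searched motifs. The Col6a2 windows held GGGCGG on the other strand only, in 3 places, of which 2 overlap, in the downstream window and in 1 place in the upstream window. Of the newer type VI genes, Col6a4 rose by 4.44 ± 0.18 (SE, limma adjusted p = 8.66e-11), from -5.69 through -5.00 to -4.46 to -0.87 through -0.51 to -0.37, but its second probe gave 0.38, so the size rests on the probe. Col6a5 and Col6a6 were not bright enough to test, and Col6a6 was well above background on none of the 19 arrays.

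Among collagens that decorate fibrils, Col12a1 (type XII, prominent in tendon and muscle connective tissue) rose by 2.14 ± 0.08 (SE, limma adjusted p = 8.45e-11), from -3.37 through -3.17 to -2.91 to -1.13 through -0.98 to -0.90, while a second probe was well above background on 0 C2C12 WT and 6 C2C12 HDAC4&5 arrays. Col9a3 (type IX, known from cartilage) was well above background on 0 C2C12 WT and 6 C2C12 HDAC4&5 arrays and was at least 2.64-fold higher (limma adjusted p = 6.53e-10). Col16a1 rose by 0.62 ± 0.04. Col19a1, a chain expressed in developing muscle, went the other way, with 6 and 0 arrays well above background, and was at least 2.32-fold lower (limma adjusted p = 2.14e-06). Its difference was -2.68 with the processed signal but -0.05 with normexp background correction (limma adjusted p = 0.916, the highest over the other settings, the lowest being 1.31e-07). Col14a1 gave 0.03 (limma adjusted p = 0.846). Normexp also shrank the differences of other chains dim in 1 group, to 1.06 for Col9a3, 1.69 for Col27a1, 2.82 for Col6a4 and -0.654 for Col4a5, each still past the adjusted p, so their sizes depend on the background correction. The minimum folds given for Col9a3, Col19a1 and Col27a1 hold for the processed signal and not under normexp.

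The transmembrane Col17a1, an anchor of epithelial cells, fell by 1.98 ± 0.09 (SE, limma adjusted p = 3.71e-10), from -0.62 through -0.54 to -0.18 to -2.74 through -2.43 to -2.27. Col8a1 (type VIII, a short chain found beneath endothelium) fell by 1.05 ± 0.06, and Col7a1 (type VII, the anchoring fibril of skin) rose by 0.38 ± 0.08. Col18a1, the source of endostatin, gave 0.04 (limma adjusted p = 0.554). Too dim to test in cells, besides those named elsewhere, were Col8a2, Col9a1, Col9a2, Col10a1, Col11a1, Col13a1, Col15a1, Col20a1, Col22a1, Col23a1, Col24a1, Col25a1 and Col28a1.

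Genes that make, trim, bind and break down collagen, or hold its breakdown in check, were listed beside the chains. Of 24 tested genes for folding and modification, 11 rose and 6 fell. The largest rises were P3h3 (1.39), Ppib (0.95) and P4ha1 (0.72), the last a catalytic chain of the prolyl 4-hydroxylase that stabilises the helix, and the largest falls P3h2, at least 2.14-fold lower, Fkbp14 (-1.15) and Sec23a (-0.28). Serpinh1, the collagen-specific chaperone, gave 0.03 (limma adjusted p = 0.842). Of 12 tested genes for trimming and cross-linking, 4 rose and 6 fell. The oxidases that link collagen chains split: Loxl2 (-5.85) and Lox (-1.36) fell and Loxl4 (2.03) rose. The transglutaminase Tgm2 (-1.30) fell, and Pcolce2 (2.40) and the propeptidase Adamts2 (1.86) rose.

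Of 16 tested partners of fibrils and basement membranes, 3 rose and 9 fell. Nid2 (-6.12), which ties laminin to type IV collagen, Postn (-4.52) and the small proteoglycan Bgn (-2.77) had the largest falls. Dpt, which helps fibrils form, was well above background on 0 C2C12 WT and 6 C2C12 HDAC4&5 arrays and at least 257-fold higher, and Fbln2 (1.57) and Thbs2 (0.77) also rose. Of 16 tested genes of collagen breakdown and its inhibitors, 9 rose and 3 fell. Among the rises were the protease inhibitors Reck (1.01) and Timp3 (0.60), named here after their values were seen. The proteases Mmp3 (at least 4.69-fold), Mmp16 (at least 6.90-fold) and Mmp2 (3.13) led the rises, and Plau (-1.88), Mmp11 (-1.78) and Pepd (-0.48) were the falls. All 7 tested collagen receptors passed, with Ddr2 (0.91), a receptor for fibrillar collagen, and Antxr1 (0.67) higher and Cspg4 (-3.56), Cd44 (-2.26) and Ddr1 (-1.45) with the largest falls. The shares called in the lists were 70.8%, 83.3%, 75%, 75% and 100%, beside 69.3% of all genes.

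Some collagens were seen in muscle and not in the cells. The probe was well above background on every kept array of all 4 groups for 19 genes. Col8a2, Col13a1, Col15a1 and Col23a1 were well above background on every soleus array and on no C2C12 array. Col11a1 and Col24a1 were well above background on 1 and 0 C2C12 arrays, and on 7 and 6 of the 7 soleus arrays. Col13a1 is a transmembrane collagen of the neuromuscular junction and Col15a1 a basement membrane component of muscle and capillaries. Every group had members below detection on all of its arrays, 12 in C2C12 WT, 11 in C2C12 HDAC4&5, 9 in soleus Con and 4 in soleus db.

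**Figure D3:**
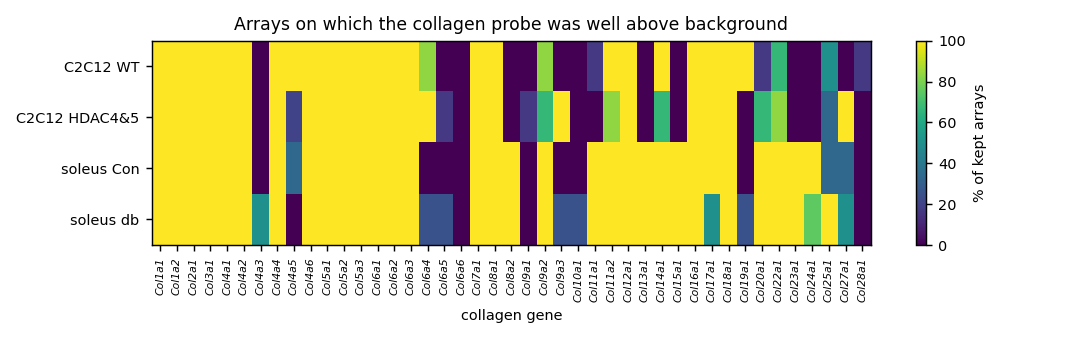
Share of kept arrays (colour, %) on which each collagen probe was well above background, by gene (x axis) and group (y axis). The 19 genes bright everywhere are at 100% in all 4 groups, and Col8a2, Col13a1, Col15a1 and Col23a1 are at 0% in both C2C12 groups and 100% in both soleus groups.

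In soleus, most collagen genes had a lower mean in db mice, but no gene passed the adjusted p. The genes were read on the same arrays, so they are not replicates of each other. Over the 23 genes well above background on every soleus array, the median level was 2.02, 1.71 and 2.42 in soleus Con. In soleus db that median was 1.45, 0.74, 0.79 and 2.18, so the groups overlapped, with db replicate 4 above Con replicates 1 and 2. Of 31 genes tested, 26 had a log2 difference below 0, and 0 passed at an adjusted p of 0.05 in limma, beside 0.0077% of all 12989 genes. The median was -0.59, beside -0.02 for all genes tested, 51.7% of which were below 0. At an unadjusted p under 0.05 in limma, 8 passed, all lower, beside 6.34% of all genes (3.35% lower and 2.99% higher). With the methods' t-test 9 passed unadjusted, but the share of all genes under that test was not counted. The lowest adjusted p was 0.482. With the slide as a block 0 passed as well, the lowest adjusted p being 0.0651.

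All 9 fibrillar collagens tested were below 0, from -1.58 for Col11a1 to -0.68 for Col2a1. Col1a1 read 6.79, 7.17 and 6.84 in soleus Con and 5.13, 4.67, 5.58 and 6.62 in soleus db. The groups did not overlap, but db replicate 4 was close to the controls, and the spots of Con replicate 3 and db replicate 4, both on slide 2, were saturated. The difference was -1.43 ± 0.47 (SE, limma adjusted p = 0.618), -2.08 on slide 1 and -0.74 on slide 2. Col11a1, a minor fibril chain that sets fibril width, read 2.02, 2.09 and 2.55 in soleus Con and 0.48, 0.41, -0.30 and 1.96 in soleus db, a difference of -1.58 ± 0.52 (SE, limma adjusted p = 0.62). Here again db replicate 4 nearly reached the lowest control. Col24a1 read -1.11, -1.19 and -0.55 against -3.00, -2.89, -2.55 and -1.53, the first db value not well above background, a difference of -1.54 ± 0.42 (SE, limma adjusted p = 0.539, and 0.0651 with the slide as a block), and Col5a3 read 2.78, 2.41 and 3.45 against 1.79, 1.05, 1.82 and 2.29, a difference of -1.14 ± 0.40 (SE, limma adjusted p = 0.665). These groups did not overlap either. Col3a1 gave -0.88 and had 1 saturated control and 2 saturated db spots.

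**Figure D4:**
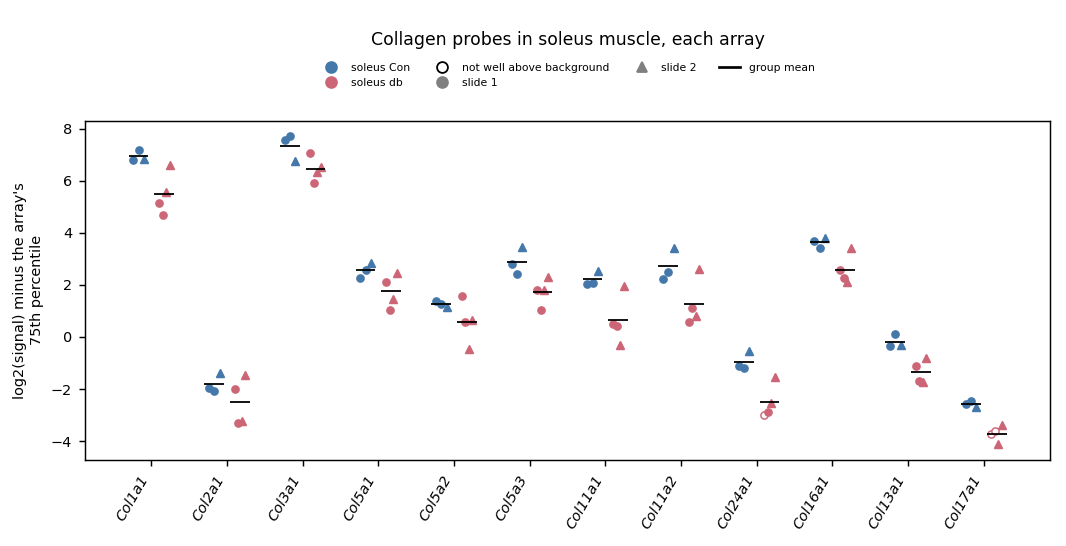
Level of 12 collagen genes (y axis, log2 of the signal minus the array's 75th percentile) on each soleus array, by group (colour) and slide (marker shape); open markers are not well above background and bars are group means. Drawn are the 9 fibrillar genes tested, and Col13a1, Col16a1 and Col17a1, which had an unadjusted p under 0.05 in limma. The 5 tested genes with a difference above 0 were not drawn. That all 12 db means lie below the Con means therefore follows from the choice of genes. The highest db array is replicate 4, on slide 2, except for Col3a1 and Col5a2.

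The other genes with the smallest p were transmembrane. Col17a1 read -2.57, -2.47 and -2.67 in soleus Con and -3.72, -3.61, -4.12 and -3.38 in soleus db, the first 2 db values not well above background, a difference of -1.14 ± 0.29 (SE, limma adjusted p = 0.482). Col13a1 read -0.34, 0.11 and -0.33 against -1.11, -1.70, -1.72 and -0.82, a difference of -1.15 ± 0.33 (SE, limma adjusted p = 0.591). Both sets of values were separated between groups. In all, 11 collagens did not overlap between groups, 10 lower and 1 higher (Col23a1, 0.66), beside 10.1% of all genes (5.16% lower and 4.97% higher). Below 0 without overlap, besides those above, were Col16a1 (-1.06), Col9a2 (-0.57), Col22a1 (-0.45) and Col18a1 (-0.42). Among overlapping genes, Col11a2 read 2.21, 2.49 and 3.42 against 0.59, 1.12, 0.79 and 2.602, so that db replicate 4 passed 2 controls. Above 0 were also Col25a1 (0.85), Col20a1 (0.53), Col4a6 (0.22) and Col4a4 (0.19). The type IV values in muscle were -1.01 for Col4a1 and -0.57 for Col4a2 and the type VI values -0.11 for Col6a1, -0.08 for Col6a2 and -0.17 for Col6a3, none past the test (limma adjusted p from 0.907 to 0.992). The type VI values depended on probe and model. A second Col6a2 probe, well above background on 3 soleus Con and 3 soleus db arrays, gave -1.17. With the slide as a block Col6a3 gave -0.92 (limma adjusted p = 0.232), Col6a1 -0.18 and Col6a2 -0.0024. The difference between cells and muscle was not tested. Col1a2 could not be tested in soleus, since outlier marks left 1 control and 2 db spots. Col4a3, Col4a5, Col6a4, Col6a5, Col6a6, Col9a1, Col9a3, Col10a1, Col19a1, Col27a1 and Col28a1 were too dim to test there.

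In whole muscle, fewer cells of a type and less RNA per cell cannot be told apart, and the cell type markers were not all level. The summed level of 8 endothelial markers was 47.1 to 48.9 times the 75th percentile in soleus Con and 21.1 to 32.6 times in soleus db, without overlap, and 4 of the 8 had an unadjusted p under 0.05 in limma and 0 passed adjusted. The 10 summed fibroblast markers were 223 to 257 and 199 to 281. The 6 summed tendon markers were 39.2 to 78.6 and 24.7 to 90.8, highest on Con replicate 3 and db replicate 4, both on slide 2. That sum held only genes with a value on every soleus array and left out Kera (log2 difference -3.51, limma adjusted p = 0.255). Over the 8 tendon markers tested the median log2 difference was -0.86, and 0 passed adjusted. The median was -0.74 over the 8 endothelial and 0.09 over the 11 fibroblast markers tested. Of the pathway lists, 0 genes passed in soleus, and 1 or 2 of each list had an unadjusted p under 0.05 in limma. The part of these cells and of the slide in the collagen levels was not tested. Without db replicate 4 the median collagen difference was -0.90, and over all arrays left out in turn it ran from -0.90 to -0.45.

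**Figure D5:**
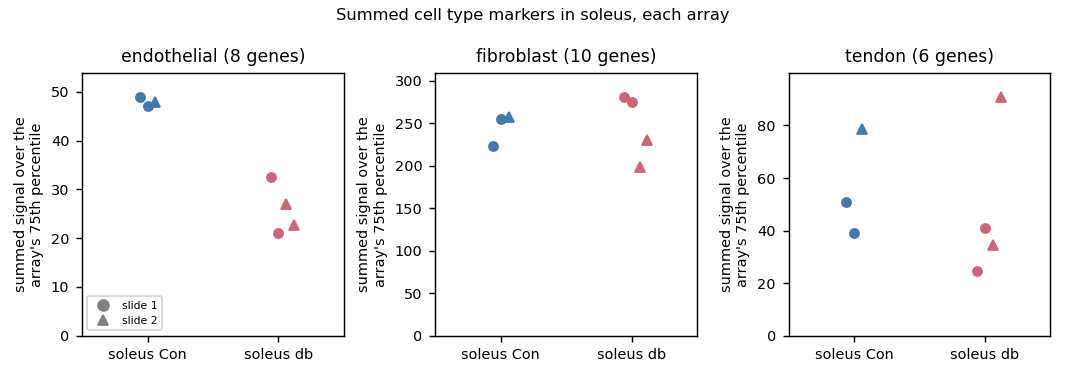
Summed signal of endothelial, fibroblast and tendon marker genes (y axis, times the array's 75th percentile) on each soleus array, by group (x axis, colour) and slide (marker shape). Endothelial sums do not overlap (47.1 to 48.9 in Con, 21.1 to 32.6 in db), and the others do. Each sum holds only the genes with a value on every soleus array.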

How the data were processed

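RNA of 19 samples (6 C2C12 WT, 6 C2C12 HDAC4&5, 3 soleus Con, 4 soleus db) was measured on 1-colour arrays of 41174 probes. The authors scanned each array and deposited spot intensity from Feature Extraction 9.5.1.1, as background-subtracted processed intensity, mean intensity and background intensity. They also deposited a matrix of the processed intensity as a ratio to a constant for most arrays, used here by group as an alternative.

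Collagen probes were taken by gene name in the newer annotation, giving 43 genes (40 by the older annotation in the soleus files). Other gene names were updated through RefSeq accessions for 27198 probes. Values were log2 processed signal minus the array's 75th percentile. Spots marked as outliers were left out, spots were averaged per probe, and the brightest probe per gene was used. A gene was tested if well above background on every kept array of 1 group. The test was limma (version 3.58.1, R 4.3.3), with a Benjamini-Hochberg adjusted p of 0.05 as the threshold over all genes. Where 1 group was never well above background, a minimum fold is given, set against the dimmest signal that counted as detected on each array. Every collagen gene is named, and values per array are for the 12 largest changes past the adjusted p in C2C12, their partner chains, the 6 smallest p in soleus, with others where a sentence turns on them. Of each pathway list the 3 largest rises and falls in C2C12 are named. The members and lists were chosen with earlier results of these data known. The fits were also tested on simulated data. The number of arrays limits the precision.

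Deviations from the group mean were correlated across genes between same-numbered arrays of the groups compared (0.314 to 0.683 over 6 pairs in C2C12, 0.491 to 0.752 over 3 in soleus). Differently numbered arrays sharing a slide gave similar values (0.362 to 0.703 and 0.417 to 0.81), so pairing by number is not separate from the slide. Alternatives were quantile, median and normexp scaling (offset 50), the matrix, other filters, all probes, slide or replicate blocks, the methods' t-test, left-out arrays or slides and kept outlier spots (the last chosen after seeing the data).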

Additional observations from a re-analysis of the deposited data

Results flagged for a closer look

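Of 70 sets of arrays (a collagen gene in a group with at least 4 kept arrays, all well above background), 1 had an array far from the others, where chance gives about 3.5. Col1a2 on C2C12 WT replicate 3 read 5.24, the nearest other array 6.203. That spot was saturated and the array had the highest 75th percentile, 1691.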

How the results depend on the processing

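In C2C12 the 19 collagen genes called became 14 to 24 over the other settings, with the rises and falls at 15 and 9 without a filter on dim probes, 13 and 9 without slide 2 and 12 and 9 with the slide as a block. Among all genes 9781 were called in the main fit, 9311 with quantile scaling and 10743 with the replicate block. For the other settings, the slide block included, the number called among all genes is not given here. The collagen counts there have no background beside them and are not read as a result. The median log2 difference of 0.04 became 0.16 with normexp, 0.37 without a filter, 0.15 with the mean of all probes, and 0.0572 to 0.123 with a slide left out (18 to 22 genes called). Among the genes recomputed singly (the 12 largest changes in C2C12 with their partner chains, and 6 in soleus), the differences that turned sign were those of Col4a5 in the matrix (1.69), Col4a4 in the matrix (-0.155), Col6a3 with normexp (-0.0749) and in the matrix (-0.10) and Col4a6 with normexp (0.16). The replicate block called 20 genes in C2C12, Col11a2 included, and 0 in soleus, where the median was -0.90. No control shares the number of db replicate 4, so under this block that array does not enter the soleus difference. This median is therefore not a separate result from the one without db replicate 4. In soleus 0 collagen genes passed under every setting with an adjusted p. At an unadjusted p there were 8 in limma and 9 in the methods' t-test, the 9 with no share of all genes beside it. The median there was -0.90 to -0.45 with an array left out. The causes were not tested.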
